A study of Mus musculus with 6 samples.

Results

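Lysosome and cathepsin genes were followed in RNA-seq of colitis-associated tumors. The 34 genes were given as a list of symbols covering 10 cysteine cathepsins, 3 aspartic and serine cathepsins, 2 other lysosomal peptidases, 4 lysosomal membrane glycoproteins, 5 glycosidases, 5 genes of lipid hydrolysis and sterol transfer, 2 precursors of saposins and granulins, and 3 genes of membrane transport and regulation. All 34 symbols were found once among the 54532 genes listed, and all 34 passed the filter on low values that left 16426 genes to test. The rule picks genes by symbol and uses none of their levels, but the list was chosen with earlier results of these data known.

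Tumors were induced with azoxymethane (AOM, a carcinogen) and dextran sulfate sodium (DSS, which injures the colonic epithelium). The control group held 3 tumors of Tmem173fl/fl mice (labelled WT), in which the gene encoding STING, the adaptor of cytosolic DNA sensing, is flanked by loxP sites. The other group held 3 tumors of Tmem173iΔmye mice (labelled CRE), which carry the same floxed alleles and Lyz2-Cre-ert2, a tamoxifen-inducible Cre driven from a gene of myeloid cells. Both groups were the AOM+DSS-L mice of the study, which received tamoxifen after 3 AOM/DSS cycles, once tumors had formed. The age of the mice at sampling is not given in the sources used here, and nothing in the labels says whether tumors of a group came from separate mice, so p-values measure the spread between these samples.

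The lysosome is the acidic compartment in which cells break down proteins, glycans and lipids taken up from outside or delivered by autophagy. Cathepsins are its main proteases, and in the gut wall they are abundant in macrophages and dendritic cells, where they also trim antigens for MHC class II, while most other hydrolases are made by nearly every cell, the epithelium included. Many of these genes are under the transcription factor TFEB and its relatives, which bind a short palindrome in their promoters.

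Each tumor had between 15329810 and 16533732 gene counts. Levels of one gene across tumors are given as CPM, the counts scaled to the library size with TMM factors, and levels between genes as FPKM, which divides by gene length. The tissue was epithelial by its markers, since the 10 epithelial genes followed summed to between 12520 and 15890 CPM in each tumor, whereas the 12 macrophage genes summed to between 455.9 and 682.4 CPM and the 12 T and NK cell genes to between 10.3 and 41.9 CPM. In whole tumor RNA, fewer cells of a type and less RNA per cell cannot be told apart. Tmem173 itself measured 114, 194 and 102 CPM in Tmem173fl/fl tumors 1, 2 and 3 and 145, 142 and 124 CPM in Tmem173iΔmye tumors 1, 2 and 3, so its level in whole tumors did not separate the genotypes. Y-linked reads were present in 1 Tmem173fl/fl and 2 Tmem173iΔmye tumors, so the sex of the mice was not balanced.

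Most lysosome and cathepsin genes sat slightly higher in Tmem173iΔmye tumors. The log2 fold change, here always Tmem173iΔmye over Tmem173fl/fl, exceeded 0 in 25 of the 34 genes and was negative in 9. The median over the list was 0.18. Over all genes tested, 49.4% were above 0 and the median was -0.0042. The largest difference was that of Hexa at 0.56 and the lowest that of Npc1 at -0.27, so that no gene of the list reached a difference of 2-fold in either direction. In the quasi-likelihood test of edgeR, with p-values adjusted over all genes by the Benjamini-Hochberg method, 0 of the 34 genes had an adjusted p under 0.05, as for all genes tested (0%), where the smallest adjusted p was 0.742. At an unadjusted p under 0.05, 2 of the 34 genes (Hexa and Npc2) were called, or 5.88%, against 6.14% of all genes tested, so the share in the list was that of the background. Both calls were in the direction of higher expression in Tmem173iΔmye tumors, a direction in which 3.23% of all genes were called, while 0 of the 34 were called lower against 2.90% of all genes.

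A simpler reading asks whether the lowest tumor of one genotype lay above the highest of the other. That held for 4 of the 34 genes (11.8%), against 12.5% of all genes tested. All 4 (Hexa, Npc2, Psap and Ctsd) were higher in Tmem173iΔmye tumors, where 6.03% of all genes were, and 0 were lower, where 6.47% of all genes were. Summed over the 34 genes, the level was 5971, 6044 and 5879 CPM in Tmem173fl/fl tumors 1, 2 and 3, and 6512, 7016 and 6276 CPM in Tmem173iΔmye tumors 1, 2 and 3. The sums of the genotypes did not overlap. Psap alone made up between 12.4% and 15.9% of these sums.

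**Figure D1:**
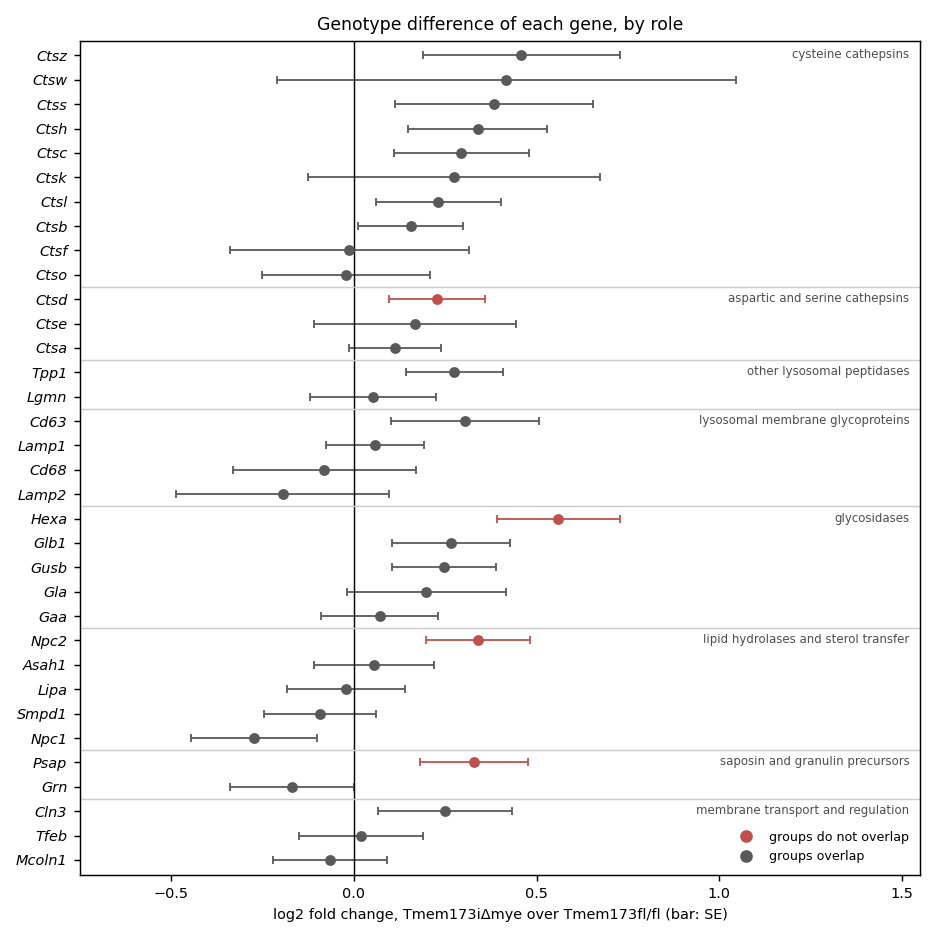
Log2 fold change (horizontal axis, Tmem173iΔmye over Tmem173fl/fl, 3 tumors each) of the 34 genes, grouped by role, with bars for the SE from edgeR. Points in red are the 4 genes whose groups did not overlap, and 25 of the 34 points lie to the right of 0.

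Levels between genes spanned more than 2 orders of magnitude. Psap, the precursor of the 4 saposins that present sphingolipids to their hydrolases, was the most abundant, with a mean of 326 FPKM over the 6 tumors, which ranked it 93 among the 16426 genes tested. It was followed by Lamp1, the most abundant glycoprotein of the lysosomal membrane, at 166 FPKM, by the aspartic protease gene Ctsd at 148 FPKM, and by the cysteine cathepsin genes Ctsz at 130 FPKM and Ctss at 125 FPKM. Grn, the progranulin gene, had 111 FPKM and Ctsb 110 FPKM. At the other end, Ctsw had 2.24 FPKM, Tfeb 4.05 FPKM, Ctso 4.48 FPKM and Cln3 4.76 FPKM. Together the 34 genes took between 0.515% and 0.622% of the summed FPKM of a tumor, and the highest share was that of Tmem173iΔmye tumor 2.

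**Figure D2:**
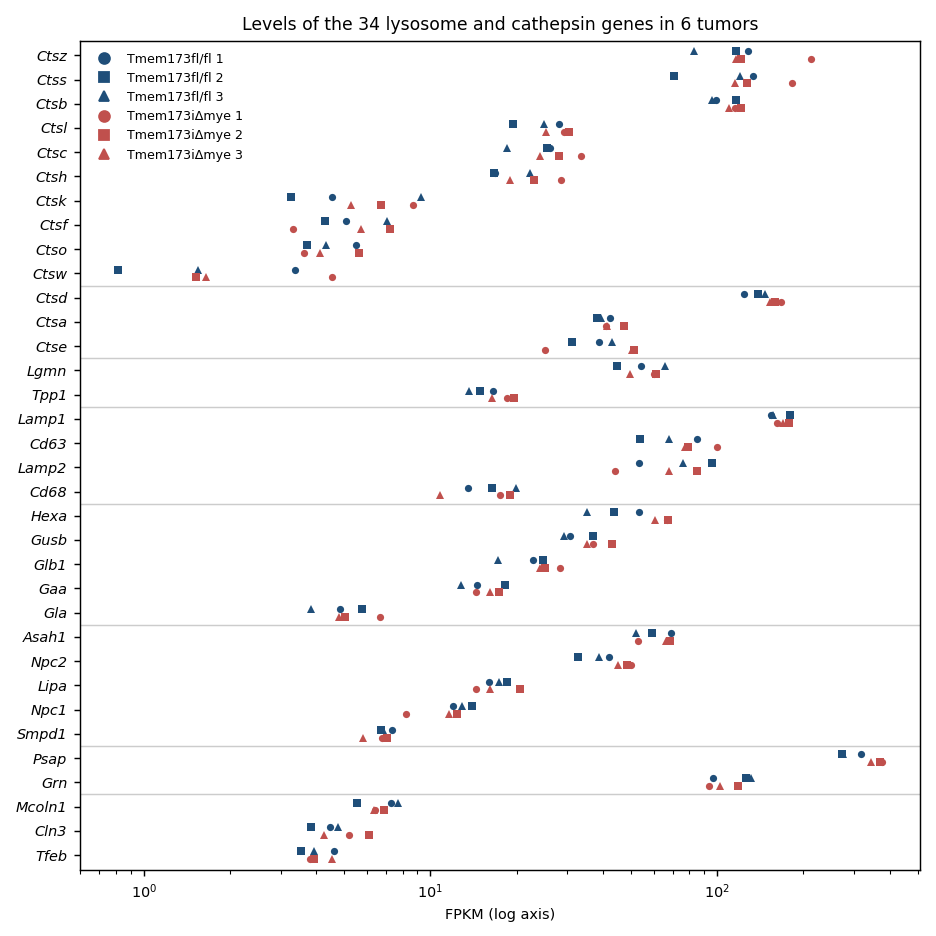
FPKM (logarithmic horizontal axis) of each of the 34 genes in the 6 tumors, grouped by role, with genes in descending order of mean FPKM within a role. Psap is the highest at a mean of 326 FPKM and Ctsw the lowest at 2.24 FPKM, and for most genes the blue and red points intermingle.

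Among the glycosidases, which strip sugars from glycolipids and glycoproteins, all 5 had a log2 fold change above 0. Hexa encodes the alpha subunit of beta-hexosaminidase, the enzyme that removes N-acetylgalactosamine from GM2 ganglioside, and occupies bases 59539540 to 59565109 of chromosome 9 (GRCm38, plus strand). It measured 108, 86.7 and 70.6 CPM in Tmem173fl/fl tumors 1, 2 and 3, and 133, 136 and 122 CPM in Tmem173iΔmye tumors 1, 2 and 3. All 3 Tmem173iΔmye tumors lay above all 3 controls, with a wider spread among the controls (88.4 ± 18.7 CPM against 130.2 ± 7.72 CPM, SD, n = 3). The log2 fold change was 0.56 (SE 0.17, unadjusted p = 0.011 and adjusted p = 0.742 from edgeR), or 1.47-fold. Hexa was the member with the smallest p, and it kept an unadjusted p under 0.05 with any single tumor left out, at log2 fold changes of 0.42 to 0.73.

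Gusb, beta-glucuronidase, measured 142, 167 and 134 CPM in the controls and 168, 197 and 161 CPM in Tmem173iΔmye tumors, a log2 fold change of 0.25 (SE 0.14, unadjusted p = 0.125, adjusted p = 0.742, edgeR). Control 2 lay above Tmem173iΔmye tumor 3. Glb1, the beta-galactosidase whose activity is used as a mark of senescent cells, had 69.5, 73.9 and 51.9 CPM against 85.7, 76.1 and 73.1 CPM, a log2 fold change of 0.27 (SE 0.16, unadjusted p = 0.138, adjusted p = 0.75, edgeR). The groups overlapped by a small margin, control 2 lying just above Tmem173iΔmye tumor 3. Gla, alpha-galactosidase A, and Gaa, which degrades lysosomal glycogen, had log2 fold changes of 0.20 (SE 0.22) and 0.07 (SE 0.16).

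The lipid genes were mixed, with 2 of 5 above 0. Npc2 encodes the soluble protein that hands cholesterol to the membrane transporter NPC1. It occupies bases 84754562 to 84773152 of chromosome 12 (minus strand) and measured 232, 177 and 213 CPM in Tmem173fl/fl tumors 1, 2 and 3 and 273, 266 and 247 CPM in Tmem173iΔmye tumors 1, 2 and 3. The groups did not overlap, and the log2 fold change was 0.34 (SE 0.14, unadjusted p = 0.0453, adjusted p = 0.742, edgeR). Leaving out any one tumor other than control 1 took the unadjusted p of Npc2 over 0.05, and leaving out control 2, the lowest, brought the log2 fold change to 0.24. Its partner Npc1 had the most negative log2 fold change of the list, -0.27 (SE 0.17, unadjusted p = 0.152, adjusted p = 0.752, edgeR), with 131, 149 and 140 CPM in the controls and 88.0, 133 and 125 CPM in Tmem173iΔmye tumors. Tmem173iΔmye tumor 1 set much of that difference, and without it the log2 fold change of Npc1 was -0.12. Asah1 (acid ceramidase), Lipa (acid lipase) and Smpd1 (acid sphingomyelinase) had log2 fold changes of 0.05, -0.02 and -0.09.

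The precursors of saposins and granulins parted. Psap (chromosome 10, bases 60277627 to 60302597, plus strand) measured 887, 748 and 760.2 CPM in Tmem173fl/fl tumors 1, 2 and 3 and 1036, 1024 and 948 CPM in Tmem173iΔmye tumors 1, 2 and 3. The groups did not overlap, and the log2 fold change was 0.33 (SE 0.15, unadjusted p = 0.0577, adjusted p = 0.742, edgeR). By DESeq2 and by limma voom the unadjusted p of Psap was 0.0183 and 0.0409. Grn measured 340.2, 437 and 458 CPM against 326, 415 and 357 CPM, a log2 fold change of -0.17 (SE 0.17), with overlapping groups.

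**Figure D3:**
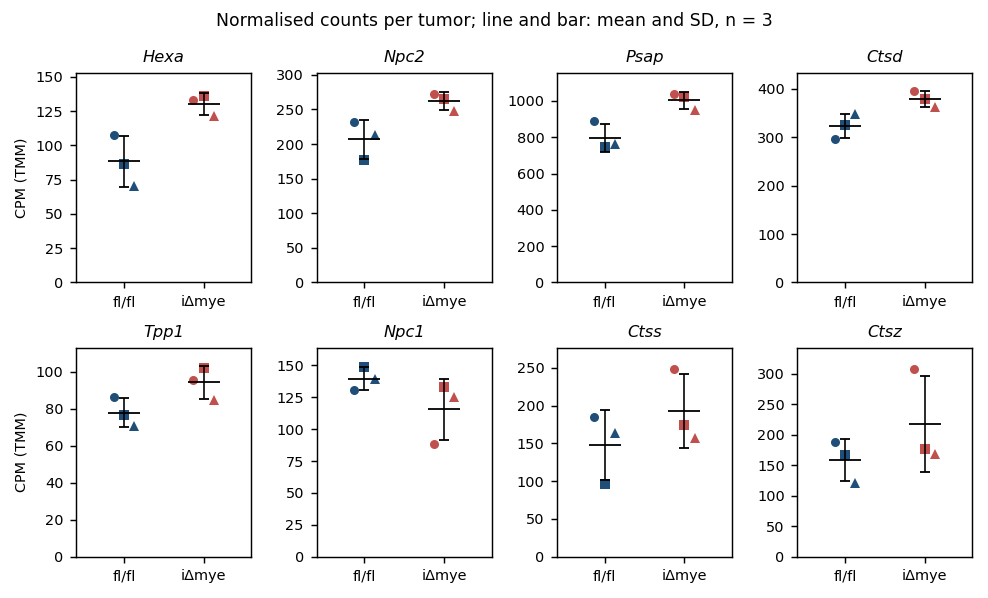
CPM (vertical axis, from 0) in each tumor for the 4 genes whose groups did not overlap (upper row), and for Tpp1, Npc1, Ctss and Ctsz (lower row), with the mean and SD of 3 tumors in black. Circles, squares and triangles are tumors 1, 2 and 3, and the red circle of Tmem173iΔmye tumor 1 is the highest for Ctss (249 CPM) and Ctsz (308 CPM) and the lowest for Npc1 (88.0 CPM).

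The aspartic and serine cathepsins were all above 0, at 3 of 3. Ctsd, the major aspartic protease of the lysosome (chromosome 7, bases 142375911 to 142388038, minus strand), measured 296, 326 and 347 CPM in Tmem173fl/fl tumors 1, 2 and 3 and 395, 378 and 362 CPM in Tmem173iΔmye tumors 1, 2 and 3. The groups did not overlap, yet the difference was small, with a log2 fold change of 0.23 (SE 0.13, unadjusted p = 0.121, adjusted p = 0.742, edgeR). Ctse, an endosomal relative found in gastrointestinal epithelium, was lowest of all in Tmem173iΔmye tumor 1 (79.9 CPM) and highest in Tmem173iΔmye tumors 2 and 3 (164 and 160.4 CPM), beside 125, 98.3 and 137 CPM in the controls. Its log2 fold change of 0.17 (SE 0.28) became 0.43 without Tmem173iΔmye tumor 1. Ctsa, the serine carboxypeptidase that protects beta-galactosidase and neuraminidase, was among the steadiest members, between 179 and 225 CPM.

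Of the 10 cysteine cathepsins, 8 lay above 0. Their median log2 fold change was 0.28, and 0 of them had an unadjusted p under 0.05. The largest was that of Ctsz, a carboxypeptidase, at 0.46 (SE 0.27, unadjusted p = 0.129, adjusted p = 0.742, edgeR), with 188, 167 and 120.4 CPM in the controls and 308, 176 and 169 CPM in Tmem173iΔmye tumors. One library decided that value. Tmem173iΔmye tumors 2 and 3 lay between controls 1 and 2, and without Tmem173iΔmye tumor 1 the log2 fold change of Ctsz fell to 0.12. Ctss, the cathepsin that cleaves the invariant chain of MHC class II in antigen-presenting cells, measured 185, 95.9 and 164 CPM in the controls and 249, 174 and 157 CPM in Tmem173iΔmye tumors. Its log2 fold change of 0.38 (SE 0.27, unadjusted p = 0.198, adjusted p = 0.757, edgeR) was 0.16 without Tmem173iΔmye tumor 1 and 0.15 without control 2, the lowest.

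The same tumor stood out for Ctsh, an aminopeptidase, and Ctsc, which activates granule serine proteases. Ctsh measured 76.9, 74.6 and 101 CPM in the controls and 129, 104 and 85.8 CPM in Tmem173iΔmye tumors, a log2 fold change of 0.34 (SE 0.19, unadjusted p = 0.114, adjusted p = 0.742, edgeR), and 0.17 without Tmem173iΔmye tumor 1. Ctsc measured 154, 147 and 108 CPM against 196, 165 and 141 CPM, with a log2 fold change of 0.29 (SE 0.18, unadjusted p = 0.15, adjusted p = 0.752, edgeR), and 0.16 without that tumor. For both genes Tmem173iΔmye tumor 3 lay within the range of the controls.

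Ctsb and Ctsl, which are made by many cell types, had log2 fold changes of 0.16 (SE 0.14) and 0.23 (SE 0.17), Ctsb between 583 and 739 CPM and Ctsl between 125 and 199 CPM. Ctsk, the collagen-degrading cathepsin of osteoclasts and fibroblasts, varied between 4.93 CPM in control 2 and 14.1 CPM in control 3, so its log2 fold change of 0.27 has an SE of 0.40. Ctsf and Ctso had log2 fold changes of -0.01 and -0.02, with SEs of 0.33 and 0.23. Ctsw, a cathepsin of cytotoxic lymphocytes, measured 4.23, 1.0 and 1.92 CPM in the controls and 5.62, 1.89 and 2.04 CPM in Tmem173iΔmye tumors, a log2 fold change of 0.42 (SE 0.63) that turned to -0.28 without Tmem173iΔmye tumor 1. Ctsw was highest in Tmem173iΔmye tumor 1 and lowest in control 2, and so was the summed level of the T and NK cell markers, at 41.9 and 10.3 CPM. The part of these cells in the values of Ctsw was not tested.

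The other peptidases of the list were Tpp1, a tripeptidase, and Lgmn, the asparagine-specific endopeptidase legumain. Tpp1 measured 86.5, 76.4 and 70.8 CPM in the controls and 95.7, 102 and 84.9 CPM in Tmem173iΔmye tumors, so that only Tmem173iΔmye tumor 3 fell below a control. The log2 fold change of Tpp1 was 0.28 (SE 0.13, unadjusted p = 0.073, adjusted p = 0.742, edgeR). For Lgmn it was 0.05 (SE 0.17).

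The membrane glycoproteins were divided, 2 above and 2 below 0. Lamp1 was the steadiest gene of the list between tumors of one genotype and measured 417, 478 and 422 CPM in the controls and 433, 479 and 458 CPM in Tmem173iΔmye tumors. The log2 fold change of Lamp1 was 0.06 (SE 0.13, unadjusted p = 0.682, adjusted p = 0.924, edgeR). Lamp2, its relative with a role in chaperone-mediated autophagy, ranged from 421 CPM in Tmem173iΔmye tumor 1 to 915 CPM in control 2, and its log2 fold change of -0.20 has an SE of 0.29. Cd63, a tetraspanin of late endosomes and exosomes, had 0.30 (SE 0.20). Cd68, the glycoprotein commonly used to mark macrophages, had -0.08 (SE 0.25), of the opposite sign to most cathepsins.

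The last group holds the regulators. Tfeb, the transcription factor of lysosome biogenesis, lay between 20 and 26.6 CPM in all tumors, and its log2 fold change was 0.02 (SE 0.17, unadjusted p = 0.911, adjusted p = 0.98, edgeR). Mcoln1, the lysosomal calcium channel, had -0.07 (SE 0.16), and Cln3, a membrane protein mutated in juvenile Batten disease, had 0.25 (SE 0.18).

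Other lysosomal genes were examined beside the 34. Of 122 such genes, 113 passed the filter, of which 51 lay above 0 and 62 below. Their median log2 fold change was -0.02. At an unadjusted p under 0.05 in edgeR, 4 were higher and 1 lower (4.42%, against 6.14% of all genes tested), and 0 had an adjusted p under 0.05. Slc15a3, a lysosomal transporter of peptides and histidine, had a log2 fold change of 0.64 (SE 0.21, unadjusted p = 0.0169), with 13.7, 17.2 and 14.1 CPM in the controls and 28.0, 24.4 and 17.8 CPM in Tmem173iΔmye tumors. Serpina3g, a serpin that inhibits cathepsins, had 0.82 (SE 0.30, unadjusted p = 0.026), with 66.6 CPM in Tmem173iΔmye tumor 1 and between 20.1 and 39.3 CPM in the other tumors. The peptidase genes Dpp7 and Scpep1 had 0.43 (SE 0.17, unadjusted p = 0.0356) and 0.42 (SE 0.18, unadjusted p = 0.0465), and the lipid transporter gene Abca2 had -0.52 (SE 0.21, unadjusted p = 0.0413). The adjusted p of each of these 5 genes was 0.742 by edgeR.

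By list, those above 0 were 11 of 31 further hydrolases and activators, 8 of 23 membrane proteins and transporters, 9 of 16 subunits of the vacuolar proton pump that acidifies the lysosome, 6 of 16 genes of delivery to the lysosome, 9 of 17 MiT/TFE factors and mTORC1 regulators, and 8 of 10 cathepsin inhibitors. The lowest p among the pump subunits was that of Atp6v1g1 at 0.37 (SE 0.16, unadjusted p = 0.0524), followed by Atp6v0b at 0.54 (SE 0.24, unadjusted p = 0.0542). Among the hydrolases Ids, iduronate sulfatase, had -0.47 (SE 0.21, unadjusted p = 0.058). Tsc1 and Fnip2, both regulators of mTORC1 at the lysosome, had -0.28 (SE 0.12) and -0.34 (SE 0.16), and the groups of both did not overlap. In all, the groups of 12 of the 113 genes did not overlap (10.6%, against 12.5% of all genes tested). Of these, 9 were higher in Tmem173iΔmye tumors (Slc15a3, Serpina3g, Dpp7, Scpep1, Idua, Laptm4a, Ppt2, Arsa and Gnptg) and 3 were lower (Tsc1, Fnip2 and Slc38a9), some of them named after their values were seen.

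Tmem173iΔmye tumor 1 was the highest of the 6 for 11 of the 34 genes and the lowest for 7, beside 24.9% and 23.5% of all genes tested, so these shares were near the background. Tmem173iΔmye tumor 2 was the highest for 12 of the 34 and the lowest for 0. Over all genes tested, Tmem173iΔmye tumor 2 was the highest for 9.69% and the lowest for 9.62%. Without Tmem173iΔmye tumor 2 the median log2 fold change of the 34 genes was 0.12 and 23 were above 0. Control 2 was the lowest tumor for 13 of the 34 genes, against 27.1% of all genes, and without it the median was 0.11 and 24 were above 0.

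Tmem173iΔmye tumor 1 also held the highest summed level of 10 interferon-induced genes, 1373 CPM against 355 and 458 CPM in Tmem173iΔmye tumors 2 and 3 and 356, 231 and 179.5 CPM in the controls. All 10 of these genes lay above 0, with a median log2 fold change of 1.6. Of them 9 had an unadjusted p under 0.05 in edgeR (90%, against 6.14% of all genes tested), and 0 had an adjusted p under 0.05. The groups of 4 did not overlap (40%, against 12.5% of all genes tested). For all of these genes but Usp18, Tmem173iΔmye tumor 1 was the highest. The macrophage markers summed to 540.5, 456 and 472 CPM in the controls and 682, 634 and 459 CPM in Tmem173iΔmye tumors, with 0 of 12 markers at 3 counts or fewer throughout. Of the 11 macrophage markers tested, 9 lay above 0 and the median log2 fold change was 0.31. Neutrophil markers summed to 216, 70.9 and 181 CPM against 396, 134 and 118 CPM, with Elane and Ctsg at 3 counts or fewer in every tumor. Ctss, Ctsz, Ctsh, Ctsc and Cd63 were highest in Tmem173iΔmye tumor 1, which had the highest sums not only of the interferon-induced, macrophage and neutrophil lists but also of the epithelial (15890 CPM), T and NK cell (41.9 CPM) and B and plasma cell (998 CPM) lists. The part of these cells and genes in the differences was not tested.

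**Figure D4:**
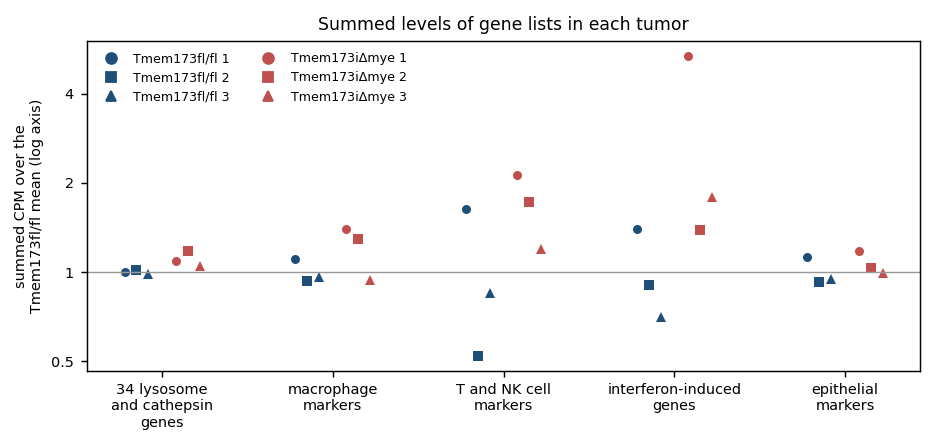
Summed CPM of the 34 lysosome and cathepsin genes and of 4 marker lists in each tumor, divided by the mean of the 3 Tmem173fl/fl tumors (logarithmic vertical axis). The 34 genes stay close to 1 in every tumor, whereas the interferon-induced genes of Tmem173iΔmye tumor 1 (1373 CPM) stand far above the control mean of 255 CPM.

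Between tumors of one genotype, the 34 genes varied about as much as other genes, with a median SD of 0.22 on the log2(CPM + 1) scale against 0.23 for all genes tested. Lamp1 (0.09), Ctsd (0.09), Ctsa (0.11) and Psap (0.11) were the steadiest, and Ctsw (0.68), Ctsk (0.54), Lamp2 (0.45) and Ctse (0.45) the most variable. Ctsw differed 5.59-fold between its highest and lowest tumor and Lamp1 1.17-fold, both as FPKM.

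Above 1 kb, gene length moved with the fold changes. Over all genes tested, the median log2 fold change was 0.14 for genes of 1 to 2 kb, 0.08 for 2 to 3 kb, 0.02 for 3 to 5 kb and -0.09 for longer ones. The 2679 genes of up to 1 kb, which include 0 of the 34, had a median of 0.0039 and did not follow this order. Control 2 and Tmem173iΔmye tumor 1 departed most, in opposite directions. The median deviation of control 2 from the mean of the 6 tumors was -0.24 in genes of 1 to 2 kb and 0.15 in genes over 5 kb, and that of Tmem173iΔmye tumor 1 was 0.18 and -0.12. Hexa (1996 bases), Ctsz (1441 bases) and Ctss (1358 bases) are short by this measure, and Npc2 (5438 bases) and Npc1 (10725 bases) are long. After subtraction of the median of all genes in the same class, 25 of the 34 genes were above 0 and the median of the list was 0.145, a comparison chosen after seeing the data. These were not all the same genes, as Lamp1 and Lgmn fell below 0 and Ctso and Mcoln1 rose above it. Whether length had a part in the difference of any one gene was not tested.

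**Figure D5:**
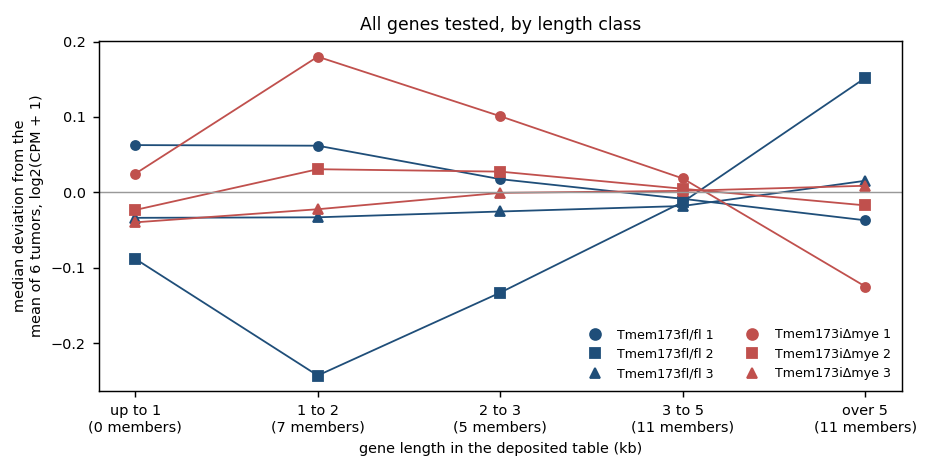
Median deviation of all genes tested from the mean of the 6 tumors, on the log2(CPM + 1) scale, by length class (horizontal axis, with the number of the 34 members in each class) and tumor. Control 2 (blue squares) rises from -0.24 at 1 to 2 kb to 0.15 over 5 kb, and Tmem173iΔmye tumor 1 (red circles) falls from 0.18 to -0.12.

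Some genes of the list share a promoter feature that the choice of genes did not use. RefSeq promoter windows of GRCm38.p6, from 250 bases before to 50 bases after a gene start, were given for 28 of the 34 genes. The E-box core CACGTG, read on both strands, lay in a window of 11 of these 28 genes (39.3%), against 8.09% of all 27025 genes with a window. Its extended form TCACGTGA, the centre of the CLEAR element that TFEB recognizes and one that always contains the core, lay in windows of 5 genes (17.9%, against 1.12%), namely Cln3, Ctsa, Ctsd, Gla and Mcoln1. The stretches of these 5 genes that hold their E-boxes, and that of Lamp1 with 4 copies of the core in a row, are shown 5′ to 3′ on the strand of the gene, with CACGTG and TCACGTGA in capitals. They lie at chr7:126583340-126583397 (Cln3, minus strand), chr2:164833749-164833795 (Ctsa, plus strand), chr7:142387908-142388077 (Ctsd, minus strand), chrX:134601182-134601244 (Gla, minus strand), chr8:3500436-3500491 (Mcoln1, plus strand) and chr8:13159088-13159163 (Lamp1, plus strand).
Cln3: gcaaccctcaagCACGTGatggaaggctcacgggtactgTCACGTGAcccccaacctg
Ctsa: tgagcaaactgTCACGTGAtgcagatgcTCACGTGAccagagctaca
Ctsd: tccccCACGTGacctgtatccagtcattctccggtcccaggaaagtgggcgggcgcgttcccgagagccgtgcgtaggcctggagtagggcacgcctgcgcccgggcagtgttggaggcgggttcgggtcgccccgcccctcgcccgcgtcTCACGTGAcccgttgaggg
Gla: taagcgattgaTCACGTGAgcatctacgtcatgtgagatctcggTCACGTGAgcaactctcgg
Mcoln1: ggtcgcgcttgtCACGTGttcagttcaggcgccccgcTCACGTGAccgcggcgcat
Lamp1: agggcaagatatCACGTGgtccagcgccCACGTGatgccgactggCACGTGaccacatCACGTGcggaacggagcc

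The copies of Ctsa sit on either side of the start of one of its RefSeq transcripts, the first base of TCACGTGA lying 13 bases before the start and at position 5 after it. The extended form begins 46 bases before the start in Mcoln1, 99 in Ctsd and 122 in Cln3, and 228 and 195 bases before it in Gla. In Lamp1 the 4 cores begin 61, 45, 28 and 15 bases before the start. The 11 genes with a core had log2 fold changes from -0.07 to 0.27, with a median of 0.11 and 9 above 0, and the 17 genes with a window but no core had a median of 0.27 and 11 above 0. Of the 4 genes whose groups did not overlap, Ctsd holds a core, while the windows of Hexa, Npc2 and Psap hold no CACGTG.

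Ctss has a run of the interferon regulatory factor motif AANNGAAA, of which 3 overlapping matches begin 25, 19 and 14 bases before the start. The motif, on both strands, lay in windows of 10 of the 28 genes (35.7%), against 26.7% of all genes. Among the 10 genes with the motif, Ctss and Psap were highest in Tmem173iΔmye tumor 1, which had the highest interferon-induced genes. Ctso, Grn and Lamp2, which hold the motif too, were lowest in that tumor. Whether the motif had a part in these levels was not tested. The 60 bases before the start of Ctss, chr3:95526726-95526785 on the plus strand, are shown with its 3 matches in capitals.
Ctss: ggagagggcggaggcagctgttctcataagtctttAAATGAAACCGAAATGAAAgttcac

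Motif matches describe letters in these windows, and no binding was measured.

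Some counts could be shared with neighbours. The NEBNext Ultra RNA kit used does not mark strand, and 12 of the 34 genes share exon bases with another gene in GENCODE vM21, 5 of them over more than 10% of their exonic bases. Ctsb shares 12.8% with Fdft1 on the other strand, which had 18730 counts over the 6 tumors, and Ctsa 10.5% with Pltp (928 counts). Hexa shares 12.8% with Tmem202, which had 25 counts over the 6 tumors. For the genes overlapping Ctsd (34.4%) and Ctsl (26.8%) 0 counts were found, which would also be the case if they were not listed. Whether reads of the shared bases were lost from Ctsd or Ctsl was not tested.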

How the data were processed

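PolyA RNA of 3 Tmem173fl/fl and 3 Tmem173iΔmye tumors was sequenced. One table deposited by the authors holds read counts of each gene, not normalized, and FPKM values. Their processing notes name fastp, HISAT2 2.0.5 and featureCounts 1.5.0-p3, with GRCm38. These FPKM were recovered from the deposited counts with gene length and median-of-ratios size factors. The table also holds the authors' own fold changes and p-values, which were not used. Genes averaging at least 0.5 FPKM entered the quasi-likelihood test of edgeR 4.0.16 under R 4.3.3 (TMM factors, group as single term, Benjamini-Hochberg adjustment over all genes). The SE was obtained as |log2 fold change|/√F. DESeq2 1.42.0, limma 3.58.1 (voom, and log2(FPKM + 1) or log2(FPKM + 0.1)), other filters and scalings, the replicate number as a block, Y-linked reads as a covariate and leaving out each tumor were alternatives. The script was tested on simulated counts. Members and lists were chosen with earlier results of these data known. Values per tumor are given for the 10 members with the lowest p, those whose groups do not overlap and the 5 with the highest FPKM. Other members were given by their range or fold change, some with tumor values chosen after these were seen. Up to 10 other lysosomal genes with the lowest p were named. Coordinates are those of the table (GRCm38). Promoter windows come from RefSeq (GRCm38.p6) and exon overlaps from GENCODE vM21. Totals of 15329810 to 16533732 counts per tumor limit the precision of low genes, and counting error is only part of the spread.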

Additional observations from a re-analysis of the deposited data

How the results depend on the processing

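No alternative turned the median log2 fold change of the 34 genes, which ranged from 0.138 to 0.193 over other filters, scalings, tools, the block, the covariate and the length adjustment and from 0.106 to 0.223 with 1 tumor left out. The number of members above 0 ranged from 23 to 28, and 0 members had an adjusted p under 0.05 in any of these fits. Of all genes tested, 28 had an adjusted p under 0.05 by DESeq2, 6 by edgeR with no filter and 1 by edgeR without Tmem173iΔmye tumor 1. In the other fits 0 had. The count of members at an unadjusted p under 0.05, 2 as reported, fell to 1 (Hexa) with library totals, with library totals without the 20 highest genes and with Y-linked reads as a covariate, where the unadjusted p of Npc2 was 0.0689, 0.0721 and 0.092. In these fits 959, 966 and 553 of all genes were called, against 1008 as reported. With 1 tumor left out the count of members ran from 1 (without Tmem173iΔmye tumor 2) to 5 (without control 1). Of all genes, 794 and 1665 were called in the last 2 fits. The count of members whose groups did not overlap rose with any 1 tumor left out, but fewer tumors overlap less often by construction. The share of all genes was not obtained for those fits, so these counts are not given. The count for other lysosomal genes was 5 as reported, where 1008 of all genes were called. It was 11 with no filter (1741 of 30939 genes tested), 1 with Y-linked reads as a covariate (553 of all genes) and 13 with the replicate block (1504). With 1 tumor left out it ran from 0 (without Tmem173iΔmye tumor 1, 575 of all genes) to 13 (without control 1, 1665). It was 1 without control 3 (535 of all genes) and 3 without Tmem173iΔmye tumor 2 (794). Apart from the choices named, the cause of these changes was not tested.

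Replicate numbers are shared between the groups, but the correlation across genes of the deviations of same-numbered tumors was 0.315, 0.00846 and 0.154, so the numbers were not taken to pair the tumors. In the fit that took the replicate number as a block, 3 members (Npc2, Ctsz and Hexa) had an unadjusted p under 0.05, as had 1504 of all genes, and 25 members were above 0 with a median of 0.18. Controls 1 and 3 correlated best with their own numbers, while control 2 correlated best with Tmem173iΔmye tumor 3 (0.223).

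Leaving the length adjustment aside, the log2 fold changes of 12 members changed sign under some alternative, among them Ctsw (0.42 as reported) and Ctsk (0.27). The length adjustment also turned that of Lamp1, from 0.06 to -0.03. With Y-linked reads as a covariate the log2 fold change was 0.033 for Ctsf and -0.000202 for Lgmn, and that of Tfeb was -0.00152 with library totals and -0.00793 with library totals without the 20 highest genes. With 1 tumor left out, the log2 fold change ran from -0.28 to 0.24 for Ctsf, -0.00608 to 0.82 for Ctsk, -0.23 to 0.15 for Ctso, -0.28 to 1.11 for Ctsw, -0.0793 to 0.21 for Lgmn, -0.43 to 0.0243 for Lamp2, -0.24 to 0.13 for Cd68, -0.0354 to 0.22 for Gaa, -0.18 to 0.0853 for Lipa, -0.0351 to 0.17 for Asah1, -0.20 to 0.0319 for Mcoln1 and -0.0705 to 0.14 for Tfeb. The depth limits Ctsw most, whose lowest tumor had 1.0 CPM.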
